A study of Mus musculus with 14 samples.

Results

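ChIP-seq peaks were examined at 8 genes for interferon regulatory factors (IRFs), Irf1, Irf2, Irf3, Irf4, Irf5, Irf7, Irf8, and Irf9, out of 21951 protein-coding genes of the mouse genome. The genes were chosen by name, and every peak in the gene body or within 30 kb of it was taken. A promoter was the stretch from 1000 bp upstream to 100 bp downstream of any start site of a protein-coding transcript. The cells were 3T3-L1 adipocytes, made in culture from a mouse preadipocyte line, and received no treatment (control) or 1 h of forskolin (FSK, 10 µM), TNFα, or both (FSK/TNFα). FSK activates adenylyl cyclase and raises cAMP, and TNFα is a pro-inflammatory cytokine that signals through NF-κB. Chromatin was immunoprecipitated for CRTC2, a coactivator of CREB, for the NF-κB subunit p65, and for H3AcK27, an acetylated histone mark that accompanies gene activity. With 1 library for each of the 12 combinations, treatments could not be tested against replicate spread and are only described.

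IRFs share a DNA-binding domain that reads GAAA repeats, the core of the interferon-stimulated response element (ISRE). IRF3 and IRF7 are activated by virus-sensing pathways and turn on type I interferon genes, IRF9 is the DNA-binding part of the complex that answers type I interferon, and IRF1 is induced by interferon-γ and by NF-κB, with IRF2 as its antagonist. IRF5 acts in Toll-like receptor signaling, and IRF4 and IRF8 are known from lymphoid and myeloid cells. In adipocytes, IRF4 is also known as a regulator of lipolysis, and IRFs as a family have been studied as repressors of adipogenesis.

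The CRTC2 libraries held between 16438040 and 31807394 tags, the p65 libraries between 20490261 and 26904732, and the H3AcK27 libraries between 9832884 and 27966129, with the fewest in the H3AcK27 library of FSK-treated cells. The lists were of unequal length, from 5188 to 19527 peaks for CRTC2, from 214 to 4221 for p65, and from 38684 to 52321 regions for H3AcK27. The adipocyte label was only partly borne out by the mark: 4 of 10 adipocyte markers (Fabp4, Pparg, Lpl, and Lipe) had an H3AcK27 region at the promoter in each of the 4 libraries, and Adipoq, Cebpa, Plin1, Cd36, Slc2a4, and Retn had none, although all 10 had a region within 30 kb. The regions at these 10 promoters summed to 1330 normalized tags without treatment, 322.4 with FSK, 896.4 with TNFα, and 294.2 with FSK/TNFα. Of 5 preadipocyte markers, between 3 and 4 had a promoter region, with sums from 976.4 to 1768 normalized tags. Of 8 leukocyte markers, between 1 and 2 had a promoter region (Csf1r or Cd68), with sums from 13.2 to 625.1. Ptprc, Spi1, Adgre1, Itgam, Cd79a, and Cd3e had none at the promoter. Within 30 kb, 5 of 5 preadipocyte and 6 of 8 leukocyte markers also had a region in every library. Of all genes, 47.0% to 51.7% had a promoter region and 74.1% to 77.0% a region within 30 kb. The counts within 30 kb thus do not mark out a cell type. The part of other cell types in the results was not tested.

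The sequences just upstream of Irf1, Irf2, Irf7, and Irf8 show which known elements stand beside the CRTC2 peaks and beside a promoter with none. They are the 250 bp upstream of the first start site in GRCm38, 5′ to 3′ in the direction of transcription, on the plus strand for Irf1, Irf2, and Irf8 and on the minus strand for Irf7. Capitals mark matches to the CRE core TGACG, the interferon-γ activated sequence TTCNNNGAA (GAS), a wide consensus for the NF-κB site, or the ISRE-type repeat, which is GAAA at 2 places with 2 bases between. All were searched on both strands, with AP1 (TGAGTCA), which had no match here.
Irf1 chr11:53769764-53770013: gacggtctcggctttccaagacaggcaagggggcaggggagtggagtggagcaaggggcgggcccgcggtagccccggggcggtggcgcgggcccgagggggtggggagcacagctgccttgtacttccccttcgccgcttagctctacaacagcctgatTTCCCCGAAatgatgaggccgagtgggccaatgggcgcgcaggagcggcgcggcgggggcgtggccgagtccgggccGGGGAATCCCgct
Irf2 chr8:46739482-46739731: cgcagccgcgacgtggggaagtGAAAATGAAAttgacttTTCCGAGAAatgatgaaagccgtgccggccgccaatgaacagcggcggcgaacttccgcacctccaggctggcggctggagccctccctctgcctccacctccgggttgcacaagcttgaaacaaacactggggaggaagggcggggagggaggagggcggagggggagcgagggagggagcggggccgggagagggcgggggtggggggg
Irf7 chr7:141266482-141266731: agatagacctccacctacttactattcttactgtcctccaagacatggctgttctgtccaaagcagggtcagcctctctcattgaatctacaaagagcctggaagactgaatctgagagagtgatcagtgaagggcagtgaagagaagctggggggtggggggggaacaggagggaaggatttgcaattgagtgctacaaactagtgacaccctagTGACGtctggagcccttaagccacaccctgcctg
Irf8 chr8:120736108-120736357: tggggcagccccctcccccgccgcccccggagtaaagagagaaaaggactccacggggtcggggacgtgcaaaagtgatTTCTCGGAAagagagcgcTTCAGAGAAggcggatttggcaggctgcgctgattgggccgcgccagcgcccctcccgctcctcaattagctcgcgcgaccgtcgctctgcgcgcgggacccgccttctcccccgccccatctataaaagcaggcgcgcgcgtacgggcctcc
The Irf1 promoter held a GAS that began 90 bp upstream of the start site and an NF-κB match that began 13 bp upstream. The Irf2 promoter held an ISRE-type repeat at 228 bp and a GAS at 211 bp, in a stretch where exons of the noncoding antisense gene Gm16675 also begin. Irf7 had a CRE core at 34 bp, and Irf8 had a GAS at 171 bp and another at 153 bp. Among 21938 promoters of the same 250 bp length, 4.33% held the wide NF-κB match, 7.22% a GAS, 3.13% the ISRE-type repeat, 19.5% the CRE core, and 3.92% the AP1 site, so each match by itself was a feature of many genes. In the same stretch Irf3, Irf4, Irf5, and Irf9 had no match to these letters. Annotated exons also overlapped it at Irf3 (5) and Irf9 (8). The CRTC2 promoter peaks of Irf9 lay outside it, 494 to 1014 bp downstream of the first start site.

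CRTC2 was listed at the promoters of Irf1, Irf2, Irf3, Irf7, and Irf9, and p65 was listed at the promoter of none of the 8 genes. In control cells 4 of 8 had a CRTC2 peak at the promoter (Irf1, Irf2, Irf3, and Irf7), against 11.8% of all protein-coding genes. With FSK the number was 5 of 8 against 27.4%, with TNFα 5 of 8 against 39.9%, and with FSK/TNFα 4 of 8 against 29.1%. At 8-fold over input the numbers were 1, 4, 5, and 4, with no share of all genes at that cut set beside them. That cut rests on an untreated input for control and TNFα and on an FSK input for the others. Without that cut, Irf2 counted in control cells only through a peak at an internal start site. When the peak midpoint had to lie in the promoter, the control count was 3 of 8. The IRF genes had from 2 to 7 start sites, each with its own promoter stretch. No such number for all genes was set beside these. The share of tags in peaks that the authors' caller gave was 0.62% in the control CRTC2 library, 1.94% with FSK, 3.10% with TNFα, and 2.05% with FSK/TNFα. The control library was thus lowest in this share and in the share of all genes with a promoter peak. The IRF count in control cells was below those with FSK and TNFα and equal to that with FSK/TNFα. Irf9 joined the list in all 3 treatments, and Irf3 was not listed with FSK/TNFα. Irf4, Irf5, and Irf8 had no CRTC2 peak at the promoter in any list. Genes with an H3AcK27 region at the promoter had a CRTC2 promoter peak more often, at 22.7% without treatment, 56.6% with FSK, 76.8% with TNFα, and 58.1% with FSK/TNFα. Among the IRF genes with such a region, the numbers were 4 of 6, 5 of 5, 5 of 6, and 4 of 5.

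Counting the gene body and 30 kb on either side, 5 of 8 genes had a CRTC2 peak without treatment, with FSK, and with FSK/TNFα, and 7 of 8 with TNFα. The window grows with gene length, and Irf2, at 108 kb, was the longest of the 8. The shares of all genes with a CRTC2 peak were 32.3%, 53.8%, 57.5%, and 64.9% in the same order of treatments. Irf8 (ENSMUSG00000041515, chromosome 8, 120736358 to 120756694, plus strand) was the gene without any: none of the 12 lists held a peak or region for CRTC2, p65, or H3AcK27 in its body or within 30 kb.

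**Figure D1:**
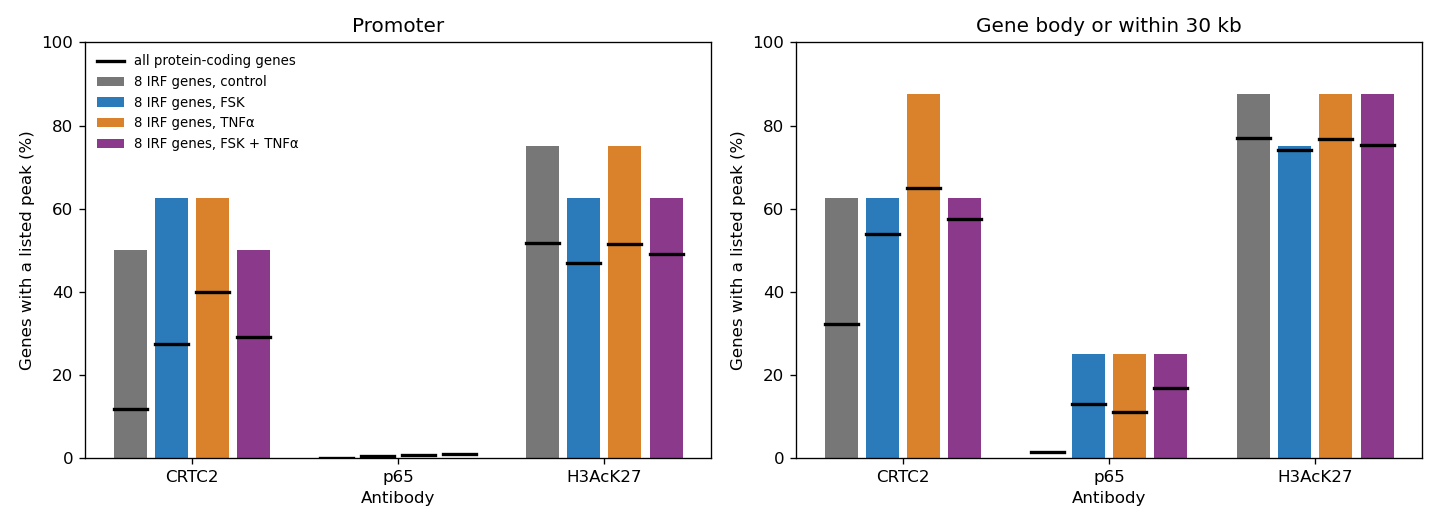
Share of the 8 IRF genes (bars) with a listed peak in the promoter (left) or in the gene body or within 30 kb (right), in percent on the y axis, by antibody and treatment, with the share of all 21951 protein-coding genes as a black line. CRTC2 bars at promoters stand above the line in each library, at 4 of 8 genes against 11.8% without treatment, and no p65 bar is seen at promoters. At 8-fold over input the control count was 1 of 8, with no share of all genes at that cut set beside it.

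The 70 CRTC2 peaks around the 8 genes lay at 41 places once overlapping peaks of different treatments were joined. Of these, 8 places were at IRF promoters, 14 were at promoters of other genes only, and 19 were elsewhere. Places outside promoters were mostly seen in 1 list, in 17 of 19, compared with 2 of 8 at the IRF promoters. No such count over all CRTC2 places was set beside these, so they are not read as a trait of the IRF genes. Many peaks in the windows thus belonged to neighbours: around Irf3 they were at Rras, Scaf1, Prmt1, and Cpt1c, and around Irf9 at Rnf31, Psme1, Psme2, Emc9, and Ipo4. Of the 70 peaks, 65 overlapped an H3AcK27 region of the same treatment by at least 1 bp, with no share of all CRTC2 peaks set beside it.

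Irf1 (ENSMUSG00000018899, chromosome 11, 53770014 to 53778374, plus strand) encodes an activator of interferon-stimulated genes and had the CRTC2 peak with the most tags in TNFα and FSK/TNFα cells among the 8 genes. The peak lay over the first start site in all 4 lists, with midpoints from 42 to 64 bp downstream of it in the 5′ UTR. It held 12.7 normalized tags without treatment, 33.5 with FSK, 63.1 with TNFα, and 59.1 with FSK/TNFα, where normalized tags are tags in the peak per 10000000 tags of the library. Exact 95% Poisson intervals, which cover counting error only and are too narrow where tags repeat, were 8.14 to 18.9, 25.2 to 43.6, 53.9 to 73.4, and 51.0 to 68.2. Control was thus lowest, FSK lay between, and TNFα and FSK/TNFα overlapped. In a pool of cells, binding in fewer cells and weaker binding per cell cannot be told apart. By score the peak stood at rank 2727 in the control list, a rank tied with others at the lowest score of 8, and at rank 120 with FSK/TNFα. The NF-κB letters 13 bp upstream lay inside the CRTC2 peak of every treatment, but no p65 peak was listed within 30 kb of Irf1 under any treatment. The GAS at 90 bp lay outside the CRTC2 peaks.

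A further place about 6 kb upstream of Irf1 carried CRTC2 in all 3 treated lists, with 18.3 normalized tags with FSK, 24.2 with TNFα, and 16.0 with FSK/TNFα. Their midpoints were 6038, 6148, and 5932 bp upstream, so the peaks were close but the TNFα and FSK/TNFα peaks joined only through that of FSK. No peak was listed there in control cells. It sat in a block of H3AcK27 that was already present without treatment, from -12.18 to -3.67 kb of the start site, with 1389.1 normalized tags. With FSK, CRTC2 was also listed 9696 bp downstream of the start site, at 13.4 normalized tags. The nearest start site to that peak was of another protein-coding gene, Gm17334, 6523 bp away.

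Irf2 (ENSMUSG00000031627, chromosome 8, 46739732 to 46847458, plus strand), whose product competes with IRF1 for the same elements, gained a CRTC2 peak upstream of its first start site in all 3 treatments. The peak held 40.8 normalized tags with FSK (95% interval 31.6 to 51.8), 32.1 with TNFα (25.6 to 39.7), and 31.1 with FSK/TNFα (25.3 to 37.9), and none was listed there in control cells. The 3 intervals overlapped, and the midpoints lay 208, 227, and 259 bp upstream. Each of these peaks covered both the ISRE-type repeat and the GAS in the sequence above. With TNFα a second peak of 17.8 normalized tags lay 130 bp downstream of the start site, and its 200 bp held a CRE core. The control peak that counted Irf2 among the bound promoters lay in an intron, 53927 bp downstream of the first start site and 160 bp from the nearest internal start site, with 12.2 normalized tags. The other 14 CRTC2 peaks around Irf2 held between 6.35 and 17.0 normalized tags and were scattered over introns and the flanks.

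**Figure D2:**
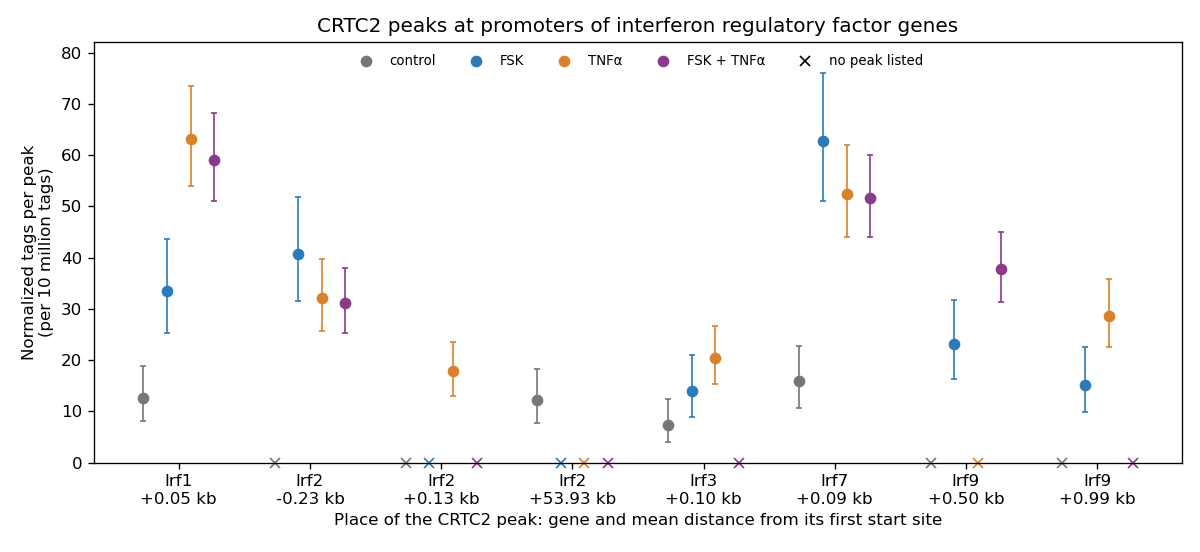
Normalized tags (y axis, per 10000000 tags) of the CRTC2 peaks at the 8 places that lie at IRF promoters (x axis, gene and distance of the place from the first start site), by treatment, with exact 95% Poisson intervals, and crosses where no peak was listed. Irf1 and Irf7 are listed under all 4 treatments with control lowest at 12.7 and 15.9, and the upstream Irf2 place and both Irf9 places have no control peak.

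Irf7 (ENSMUSG00000025498, chromosome 7, 141262706 to 141266481, minus strand), the amplifier of type I interferon production, had its CRTC2 peak at the same place in all 4 lists, with midpoints from 84 to 97 bp downstream of the first start site. It held 15.9 normalized tags without treatment (95% interval 10.7 to 22.7), 62.7 with FSK (51.1 to 76.0), 52.5 with TNFα (44.1 to 62.0), and 51.6 with FSK/TNFα (44.0 to 60.1). The 3 treated values overlapped within counting error and all lay above control. The FSK peak was the highest of the 8 genes in that library, at rank 145 of 11749. The CRE core of the Irf7 promoter, 34 bp upstream of the first start site, lay outside the 4 peaks. No other CRTC2 peak was listed within 30 kb of Irf7.

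Irf3 (ENSMUSG00000003184, chromosome 7, 44997648 to 45002848, plus strand), the partner of Irf7 in virus sensing, carried a weaker peak at the start site, in a stretch it shares with the promoter of Bcl2l12. It held 7.41 normalized tags without treatment (95% interval 4.05 to 12.4), 14.0 with FSK (8.87 to 21.0), and 20.4 with TNFα (15.3 to 26.6). Intervals of control and TNFα did not overlap, while that of FSK overlapped both. The 200 bp around each of the 3 midpoints held a CRE core. With FSK/TNFα no peak was listed at this place, and the nearest lay 1003 bp downstream of the first start site, at 6.60 normalized tags.

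Irf9 (ENSMUSG00000002325, chromosome 14, 55603571 to 55610030, plus strand) had no CRTC2 promoter peak in control cells and had peaks at 2 places in treated cells, near different start sites. The first place, 494 to 508 bp downstream of the first start site, held 23.1 normalized tags with FSK (95% interval 16.4 to 31.7) and 37.7 with FSK/TNFα (31.3 to 45.1), and the 200 bp around it held a GAS. The second, 961 to 1014 bp downstream, held 15.2 with FSK (9.84 to 22.5) and 28.7 with TNFα (22.6 to 35.9). The FSK list was thus the list with both places. Irf9 was 1 of 4 IRF genes without a promoter peak without treatment, and among all such genes 20.1% had a promoter peak with FSK, 32.3% with TNFα, and 22.3% with FSK/TNFα.

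Where a promoter peak of a treated library overlapped a control peak, the normalized tags were set against each other. For Irf1 the ratio to control was 2.64 with FSK, 4.97 with TNFα, and 4.65 with FSK/TNFα. For Irf7 it was 3.94, 3.30, and 3.25, and for Irf3 it was 1.89 with FSK and 2.75 with TNFα. All of these were at least 1.5-fold, which was also true of 56.3% of 1786 genes with FSK, 76.7% of 2181 with TNFα, and 52.7% of 1737 with FSK/TNFα. The medians over those genes were 1.62, 2.22, and 1.55, beside the lower share of tags in peaks of the control library, and its part in the ratios was not tested. The ratio of Irf1 with FSK/TNFα exceeded that of 99.1% of the genes, and the ratio of Irf7 with FSK that of 96.9%. The 2 Irf3 ratios exceeded those of 63.9% and 67.9%.

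Peaks around Irf4 and Irf5 were few and weak. Irf4 (ENSMUSG00000021356, chromosome 13, 30749226 to 30766976, plus strand) had a single CRTC2 peak, with TNFα, 10675 bp upstream of the first start site, with 9.44 normalized tags (95% interval 6.11 to 13.9) and the lowest score of its list, 8. It is shown because its 200 bp held overlapping ISRE-type repeats, marked in capitals on the plus strand of GRCm38.
Irf4 chr13:30738463-30738492: gggtcagTTTCACTTTCCCTTTCttcaggc
Irf5 (ENSMUSG00000029771, chromosome 6, 29526625 to 29541871, plus strand) had a single CRTC2 peak, also with TNFα, 44456 bp downstream of the start site, where Tnpo3 is the gene with the nearest start site, at 6.80 normalized tags. Both peaks had the lowest score in the TNFα list.

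Of the 70 CRTC2 peaks, 13 held a CRE core, 8 the ISRE-type repeat, 7 a GAS, 7 the wide NF-κB match, 3 an AP1 site, and 0 the exact NF-κB consensus. By treatment, the CRE core was in 2 of 13 peaks without treatment, 5 of 16 with FSK, 4 of 25 with TNFα, and 2 of 16 with FSK/TNFα, against 14.7%, 26.3%, 15.7%, and 25.2% of all peaks in the same lists. A GAS was in 0 of 13, 4 of 16, 1 of 25, and 2 of 16, against 5.17%, 6.94%, 4.96%, and 7.54%. The ISRE-type repeat was in 1 of 13, 2 of 16, 3 of 25, and 2 of 16, against 2.66%, 2.28%, 2.92%, and 2.46%. The wide NF-κB match was in 2 of 13, 2 of 16, 1 of 25, and 2 of 16, against 2.54%, 3.55%, 3.34%, and 4.47%, and the AP1 site in 1 of 13, 0 of 16, 0 of 25, and 2 of 16, against 3.68%, 12.2%, 5.30%, and 14.5%. Peaks of different treatments at the same place share their letters, so these are not independent peaks, and a match is no evidence that the factor bound.

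For p65, none of the 8 IRF promoters had a peak in the control, FSK, TNFα, or FSK/TNFα list. The shares of all genes were also small, at 0.0911%, 0.583%, 0.629%, and 1.02%. The share of tags in peaks was low too, at 0.01%, 0.41%, 0.32%, and 0.63% in that order. The TNFα list, with 2404 peaks, was shorter than the FSK list, with 2969. Absence from these lists is therefore not read as absence of p65 binding. In the gene body or within 30 kb, 0 of 8 genes had a p65 peak in control cells against 1.36%. With FSK there were 2 of 8 (Irf2 and Irf4) against 13.1%, and with TNFα 2 of 8 (Irf2 and Irf5) against 11.2%. With FSK/TNFα there were 2 of 8 (Irf2 and Irf3) against 16.9%. Irf2, the longest of the 8 genes and so the one with the widest window, was among them each time. The 7 p65 peaks around the IRF genes scored 7 or 8, at or next to the lowest score of their lists, and held between 7.22 and 22.0 normalized tags. Many peaks share these scores, with tied ranks from 858 of 2969 with FSK and 942 of 2404 with TNFα. With FSK/TNFα the ranks were 777 and 1614 of 4221. The Irf4 peak with FSK (15.6) and the Irf2 peak with FSK/TNFα (22.0) exceeded their list medians of 13.6 and 13.7. The others lay below theirs. None of the 7 overlapped a CRTC2 peak of the same treatment. Across treatments, the FSK/TNFα p65 peak in the Irf3 window overlapped a CRTC2 peak of the FSK list at the Rras promoter, with 9.73 normalized tags. The strongest lay 129859 bp downstream of the first Irf2 start site, beyond the end of the gene, with FSK/TNFα. The peak in the Irf3 window, also with FSK/TNFα, was 158 bp from a start site of Rras, a small GTPase gene, and held 11.2 normalized tags. It is shown because it was the p65 peak with an NF-κB match, in capitals on the plus strand of GRCm38.
Irf3 window, Rras, chr7:45017799-45017828: cacccctcttGGAATTCCCCgtttttgcaa

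H3AcK27 marked the promoters of Irf1, Irf2, Irf3, Irf7, and Irf9 in every library, and Irf5 weakly in some. In control cells and with TNFα, 6 of 8 IRF promoters overlapped a region, against 51.7% and 51.4% of all genes. With FSK and FSK/TNFα it was 5 of 8, against 47.0% and 49.1%, since Irf5 was not listed. The Irf5 regions lay at an internal start site, from 2.02 to 3.17 kb downstream of the first, and held 26.8 normalized tags in control cells and 10.7 with TNFα. Irf4 had no promoter region but had regions in its window in each library, mostly more than 30 kb downstream of its start site. Within 30 kb, 7 of 8 genes had a region without treatment, with TNFα, and with FSK/TNFα, against 77.0%, 76.8%, and 75.2%, and 6 of 8 with FSK against 74.1%.

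The listed H3AcK27 region over the Irf1 start site differed in extent between treatments. In all 4 libraries it also overlapped the promoter of Gm17334, so its extent and tags are not those of Irf1 alone. The region began at -0.76 kb of the Irf1 start site and ended 8.12 kb downstream without treatment. It ended at 4.98 kb with FSK, at 14.19 kb with TNFα, and at 11.86 kb with FSK/TNFα. It held 692.7, 472.9, 1229, and 889.7 normalized tags in that order. Density hardly moved between control (78.0 normalized tags per kb), FSK (80.2), and TNFα (78.9), and was 66.9 with FSK/TNFα. With TNFα the region thus ran past the 8.36 kb gene while its density stayed at the control value. Acetylation beyond the gene was also listed in other libraries as separate regions. In control cells these ran from 13.4 to 14.2 kb (12.7 normalized tags) and from 15.53 to 17.22 kb (31.2). With FSK a region ran from 8.79 to 10.6 kb (46.8). The control region from 15.53 kb lay past the end of the TNFα region, and TNFα too had a separate region there, from 14.74 to 17.18 kb (75.4). How far the joining of regions entered the difference in extent was not tested. The tags summed over the region at the promoter were 1.77-fold control with TNFα, 1.28-fold with FSK/TNFα, and 0.683-fold with FSK, over 15.6, 13.3, and 5.9 kb against 8.88 kb. All regions of the Irf1 window together held 3434 normalized tags over 33.3 kb in control cells, 2335 over 24.2 kb with FSK, 4314 over 43.5 kb with TNFα, and 2940 over 31.1 kb with FSK/TNFα, a smaller spread than at the promoter region alone. A promoter sum at least 1.5-fold higher was met by 8.64% of genes with TNFα, 4.95% with FSK, and 9.53% with FSK/TNFα, and among IRF genes by Irf1 with TNFα alone.

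**Figure D3:**
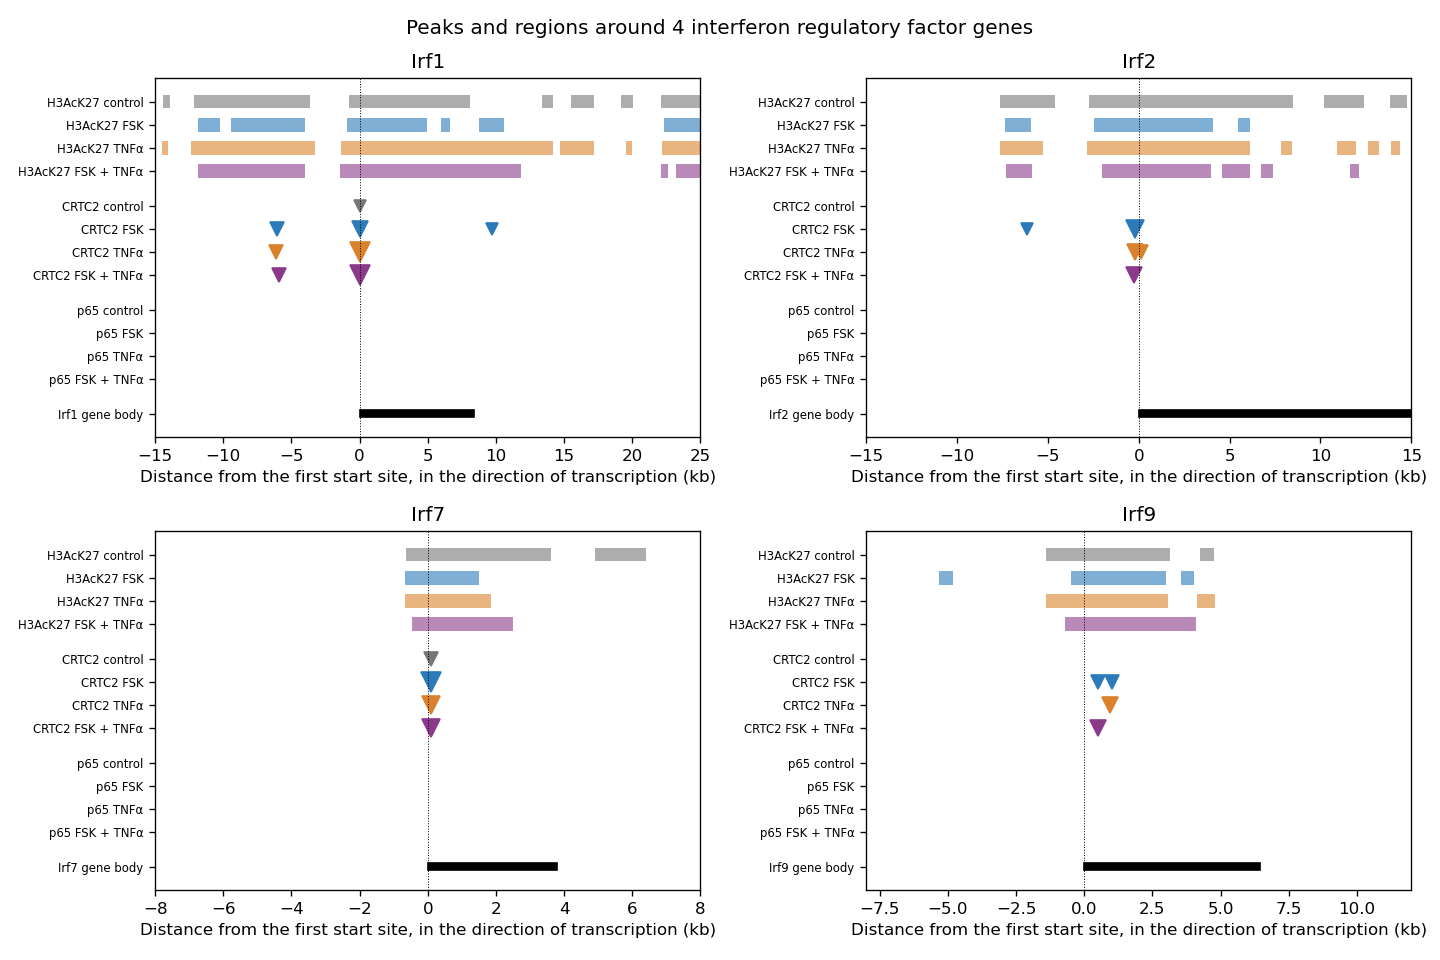
Position of H3AcK27 regions (bars), CRTC2 peaks (triangles), and p65 peaks (diamonds, none within the stretches drawn, which are shorter than the 30 kb windows) around Irf1, Irf2, Irf7, and Irf9, with distance from the first start site in kb on the x axis and 1 line per library, and symbols that grow with the normalized tags. The Irf1 promoter region ends at 14.19 kb with TNFα and at 8.12 kb without treatment, with separate regions beyond it, and CRTC2 sits at the start sites of Irf1 and Irf7 in every list.

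In density, which is the normalized tags per kb of the regions that overlap the promoter, 2 IRF values passed 1.5-fold over control. Irf7 had 70.2 normalized tags per kb in control cells and 115 with FSK, a ratio of 1.64, with 91.7 under TNFα and 83.7 under FSK/TNFα. Its region was narrower with FSK, at 2.19 kb against 4.26 kb, and the summed tags were 0.843-fold control. With densities divided by the all-gene median of each library, the Irf7 ratio no longer reached 1.5. Irf2 had 80.7 normalized tags per kb without treatment, 110 with FSK, 108 with TNFα, and 147 with FSK/TNFα, the last a ratio of 1.82. The control value pools 2 regions, 11.2 kb at the first start site and 3.73 kb at an internal one, whereas the FSK/TNFα value is from 1 region of 6.0 kb, and with the strongest region alone the ratio no longer reached 1.5. The sum was 0.731-fold control. A higher density thus went with a narrower region and no rise in summed tags at both genes, and the FSK library of the mark was the shallowest.

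A rise in density of at least 1.5-fold was met by 1 of 5 IRF genes with FSK against 8.09% of all genes with a region in both libraries, by 0 of 6 with TNFα against 3.83%, and by 1 of 5 with FSK/TNFα against 9.80%. A fall of that size was met by none, against 3.14%, 1.38%, and 3.94%. For FSK/TNFα over FSK, none of 5 rose or fell by 1.5-fold, against 3.50% and 3.12%, and for FSK/TNFα over TNFα none of 5, against 4.16% and 3.51%. Irf3 stayed between 80.1 and 104 normalized tags per kb and Irf9 between 84.3 and 107. All-gene medians were 61.6 without treatment, 68.4 with FSK, 66.6 with TNFα, and 69.2 with FSK/TNFα, so Irf2, Irf3, Irf7, and Irf9 lay above the median in every library, and Irf1 in all but FSK/TNFα. Irf5 lay below it in both libraries where it was listed, at 23.1 in control cells and 21.4 with TNFα.

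**Figure D4:**
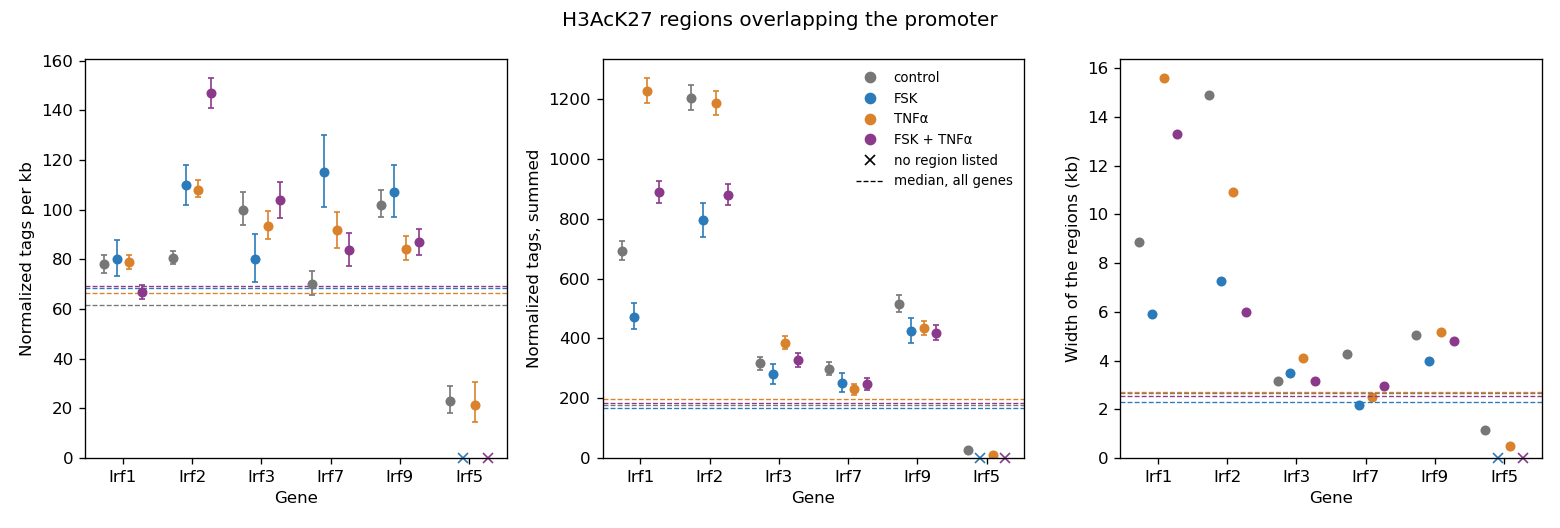
H3AcK27 at the promoters of 6 IRF genes by treatment, as normalized tags per kb (left), summed normalized tags (middle), and width in kb (right), with exact 95% Poisson intervals in the first 2 panels, dashed lines for the median of all genes with a promoter region, and crosses where no region was listed. The Irf1 region has the most tags and width with TNFα, 1229 tags and 15.6 kb, at a density of 78.9 per kb, and Irf2 has its highest density with FSK/TNFα, 147 per kb, from 1 region of 6.0 kb.

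Genes of the interferon and virus-sensing pathways were counted in the same lists. Of 44 listed, 43 matched a protein-coding gene of the annotation, and Mx2 did not. A pair of the target genes had the same values in every list, so the 43 are not all separate promoters. CRTC2 was at the promoter of 17 without treatment, 28 with FSK, 35 with TNFα, and 31 with FSK/TNFα, or 39.5%, 65.1%, 81.4%, and 72.1%, against 11.8%, 27.4%, 39.9%, and 29.1% of all genes and 22.7%, 56.6%, 76.8%, and 58.1% of genes with H3AcK27 at the promoter. H3AcK27 was at 41, 39, 41, and 41 of the 43 promoters, against 51.7%, 47.0%, 51.4%, and 49.1% of all genes, so the acetylated genes are the nearer background, and the TNFα share was close to it. All 3 genes for IRF2-binding corepressors (Irf2bp1, Irf2bp2, and Irf2bpl) had a CRTC2 promoter peak in every treated list. Irf2bp1 (17.5 normalized tags) and Irf2bp2 (13.8) were already listed in control cells. Irf2bp1 held 13.4 with FSK, 16.6 with TNFα, and 15.4 with FSK/TNFα, none above its control value. The 3 STAT genes counted had a promoter peak in all 4 lists. Given the shares of acetylated genes above, 3 of 3 is not read as a trait of the corepressors. With FSK/TNFα the 4 strongest were Stat3, a signal transducer of the IL-6 family, at 67.6 normalized tags, Socs1, a feedback inhibitor of JAK kinases, at 64.1, Isg15, a ubiquitin-like interferon-induced protein, at 51.9, and Irf2bp2 at 34.3. The Irf1 value in that library, 59.1, lay between those of Socs1 and Isg15. p65 was at the promoter of 0 of 43 without treatment, with FSK, and with FSK/TNFα, and of 2 with TNFα, or 4.65% against 0.629% of all genes. The p65 share among acetylated genes, the nearer background, was not set beside it, so the 2 are not read as an excess. These were Ikbke, a kinase that phosphorylates IRF3 and IRF7, at 16.4 normalized tags, and Gbp2, an interferon-induced GTPase, at 18.6, named after their values were seen.

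Irf1, Irf2, and Irf7 had a promoter peak in 4 of the 8 CRTC2 and p65 lists, the most among the IRF genes. Across the 12 libraries, the genes most like Irf1 in log2 (normalized tags + 1) of the strongest promoter peak were Tmod3, Ptpn11, Tagln2, Rnf19a, and Dolk, with Pearson r from 0.9985 to 0.9990. For Irf2 they were Psap, Trip4, Eif4e, Prmt6, and Sntb2 (0.9993 to 0.9996), and for Irf7 Zbtb37, Alyref2, Gtf3c6, Traf7, and Calm2 (0.9988 to 0.9992). Such values were common, since r over 12 libraries was set mostly by which antibodies had a peak: of 11788 genes, 4100 exceeded 0.95 with Irf1, 4015 with Irf2, and 1630 with Irf7.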

How the data were processed

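ChIP-seq peak lists from 3T3-L1 adipocytes were used for 3 antibodies and 4 treatments, with 1 library for each of the 12 combinations. Groups followed the sample labels, and the 2 input libraries enter only through the lists. Per the labels and file headers, the authors aligned reads with STAR to mm10 and called peaks in each library with HOMER, in its factor setting for CRTC2 and p65 and in its histone setting for H3AcK27. As deposited, signal is the tag number of a peak scaled to 10000000 tags per library. The deposited score counts at most 1 tag per position, and the deposited fold values are ratios to the input or to the local background, with at least 4-fold required. Deposited p-values, fractions, and other columns of the lists were not compared. Control and TNFα libraries were set against an untreated input and the others against an FSK input. Fold values over input were therefore not compared across treatments, and counts at 8-fold over input rest on different inputs. Peaks below the authors' threshold are not listed.

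Genes and start sites came from GENCODE mouse release 21 (GRCm38), and 0 of 243429 peaks ran past a chromosome end. Sequences were read from the RefSeq GRCm38 assembly. Peaks overlapped by at least 1 bp. Motifs were searched in 200 bp centered on the peak midpoint. Tag numbers behind intervals were recomputed from the scaled signal and the library total. Depth, from 9832884 to 31807394 tags per library, limits which weak peaks were listed. The genes, gene lists, and tests were chosen with earlier results of these data known. All 8 genes are named, as are at most 4 pathway genes per antibody with the most tags at the promoter with FSK/TNFα, and the 5 genes most like the IRF gene found in the most CRTC2 and p65 lists (here 3 tied). The IRF2-binding corepressors, Ikbke, and Gbp2 were named outside that rule. The alternatives were promoter extent, start sites, midpoint rule, 8-fold over input, lists of equal length, windows of 10 and 50 kb, and the H3AcK27 fold and density. The code passed 9 of 9 checks on simulated data. Python 3.11.15, numpy 2.4.6, pandas 2.3.3, scipy 1.17.1, pysam 0.24.0, and matplotlib 3.10.9 were used.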

Additional observations from a re-analysis of the deposited data

How the results depend on the processing

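Of 162 counts recomputed under another setting, 146 stayed within 1.5 times the reported value. Many of these were 0 under both settings, so the number is no measure of stability. Within that limit, the CRTC2 count with TNFα within 30 kb fell from 7 to 5 genes with a window of 10 kb. It was also 5 at 8-fold over input and with lists of equal length. Shares of all genes under the other settings were not set beside the counts. The p65 promoter count was 0 under every setting tried. Requiring 8-fold over input left 1 IRF gene with a CRTC2 promoter peak in control cells and 2 with a CRTC2 peak within 30 kb, and left 0 with a p65 peak within 30 kb both with TNFα and with FSK/TNFα. With a window of 10 kb, p65 was near 1 gene with FSK and 0 with FSK/TNFα. With lists of equal length, p65 was near 1 gene with FSK and 1 with FSK/TNFα. When the midpoint of an H3AcK27 region had to lie in the promoter, 3 genes counted with FSK and 2 with FSK/TNFα, because wide regions have midpoints outside it. The density calls were the least stable: at a fold of 2 there were 0 with FSK and 0 with FSK/TNFα, the Irf7 call with FSK was lost (0 genes) when densities were divided by the all-gene median, and the Irf2 call with FSK/TNFα was lost (0 genes) when the strongest region alone was used. In 400 bp instead of 200 bp, 25 CRTC2 peaks held a CRE core and 15 a GAS, since the window is longer. No paired analysis was possible because each combination of antibody and treatment had 1 library, and for the same reason no replicate could be left out.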
